A study of Homo sapiens with 92 samples.

Results

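The genes described here are the 10 that load, release, lock and stop the cohesin ring: NIPBL, MAU2, WAPL, PDS5A, PDS5B, ESCO1, ESCO2, CDCA5, CTCF and HDAC8. They were chosen by name, are 10 of the 48905 genes kept, and have a row in each of the 92 libraries. Every sample carries NIPBL tagged as mGreenLantern-P2A-FKBP12(F36V)-NIPBL, DMSO controls included, so both arms of each comparison hold a modified NIPBL gene. dTAGV-1 (dTAG below) recruits a ubiquitin ligase to the FKBP12 tag and so removes the protein, not its RNA, and NIPBL RNA therefore does not check the depletion. The assay was SLAM-seq, in which 4-thiouridine (4sU, here at 100 µM) enters RNA as it is made, so that reads of new RNA carry T-to-C conversions.

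A single clone, NIPBL-D7, of the telomerase-immortalised retinal pigment epithelium line hTERT RPE-1 gave the RPE-1 libraries. Thymidine (2 mM, 14 h, given 2 times) synchronised these cells, nocodazole (20 ng/ml, 120 min) arrested them in mitosis, and mitotic cells were collected by shake-off before release. In the mitosis series dTAG or DMSO was present during the nocodazole block and afterwards, with 15 min of 4sU before each harvest. This series has 4 dTAG and 3 DMSO libraries for 0 min, 3 of each drug for 30 min, 4 of each for 60 min and for 90 min, 3 dTAG and 4 DMSO for 120 min, and 2 of each for the times 4, 6 and 8 h. The release series received drug only after the block, with 3 dTAG and 3 DMSO libraries at each of 30, 60, 90 and 120 min. Both series also have 3 dTAG and 3 DMSO libraries at 120 min with 120 min of 4sU. WTC11, an induced pluripotent stem cell line of human origin with inducible neurogenin, was differentiated to neurons and to cardiomyocytes, which received dTAG or DMSO for 4 h and 4sU for 120 min, with 2 dTAG and 2 DMSO libraries of each type. Their titles and culture protocol name WTC11, whereas their source and cell line fields name hTERT RPE-1, and no clone is given. Nothing in the labels says that replicates are separate cultures, so p-values measure the spread between libraries, which may be technical.

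Cohesin encircles DNA, extrudes loops and holds sister chromatids together. NIPBL with its partner MAU2 loads the ring and drives extrusion, WAPL bound to PDS5A or PDS5B opens the ring to release it, and CTCF bound to DNA stops extrusion at loop boundaries. ESCO1, through the cell cycle, and ESCO2, in S phase, acetylate SMC3, after which CDCA5 (sororin) can hold WAPL off, and HDAC8 removes the acetyl group so that SMC3 can be used again.

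The promoter windows of NIPBL and CDCA5 are shown because NIPBL was called higher with dTAG at 8 h and CDCA5 is a cell cycle gene whose window holds motifs of both cell cycle classes. Each holds the 250 bases before the RefSeq start in GRCh38.p14, read 5′ to 3′ on the gene's strand, at chr5:36876519-36876768 (plus) and chr11:65084041-65084290 (minus).
NIPBL: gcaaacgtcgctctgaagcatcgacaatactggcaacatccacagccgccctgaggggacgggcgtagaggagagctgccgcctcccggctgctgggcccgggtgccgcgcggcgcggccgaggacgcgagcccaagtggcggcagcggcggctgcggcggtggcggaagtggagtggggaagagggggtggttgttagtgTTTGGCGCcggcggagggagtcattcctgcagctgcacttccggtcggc
CDCA5: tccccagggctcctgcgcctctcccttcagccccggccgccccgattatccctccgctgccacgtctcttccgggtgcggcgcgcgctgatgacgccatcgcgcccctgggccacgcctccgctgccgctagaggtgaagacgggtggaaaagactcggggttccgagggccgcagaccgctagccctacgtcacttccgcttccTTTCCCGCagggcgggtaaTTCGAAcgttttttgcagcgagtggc
Capitals mark an exact match to TTTGGCGC in NIPBL, and to TTTCCCGC and then TTCGAA in CDCA5. The search covered both strands for the E2F type (TTTCCCGC, TTTGGCGC or TTTCGCGC) and for the CHR type of G2 and M genes (TTTGAA or TTCGAA). The matches start 49 bases before the NIPBL start and 45 and 26 bases before the CDCA5 start. Of 35116 promoter windows of that length, 2.32% hold a match of the E2F type and 14.3% one of the CHR type, and 0.55% hold TTTGGCGC, 1.39% TTTCCCGC and 1.19% TTCGAA. In CTCF a TTTGAA starts 146 bases before the start, and the windows searched for MAU2, WAPL, PDS5A, PDS5B and HDAC8 hold none of these motifs. Only the first listed window of each member was searched, while the shares count every window of a gene. Of the 16 E2F genes listed below, which have 20 windows, 40% of windows hold a match of the E2F type. RefSeq entries were found for 8 of the 10 genes, and ESCO1 and ESCO2 had none in the table used.

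In hg38 the loader genes lie at chr5:36876759-37066413 on the plus strand (NIPBL) and chr19:19320681-19358755 on the plus strand (MAU2). The release genes lie at chr10:86435256-86521815 on the minus strand (WAPL), chr4:39822863-39977956 on the minus strand (PDS5A) and chr13:32586427-32778019 on the plus strand (PDS5B). The acetylation genes lie at chr18:21529281-21600884 on the minus strand (ESCO1), chr8:27771949-27812640 on the plus strand (ESCO2), chr11:65066300-65084164 on the minus strand (CDCA5) and chrX:72329516-72573103 on the minus strand (HDAC8). CTCF lies at chr16:67562407-67639183 on the plus strand. Reads were counted over these whole genes, with a strand setting that is not given in the sources used here. ESCO2 overlaps PBK and CCDC25 on the opposite strand, which held 382% and 277% as many of all reads as ESCO2 itself, and MAU2 overlaps SUGP1, which held 114% as many as MAU2. Without the strand setting, reads of ESCO2 and MAU2 cannot be told apart from reads of these partners.

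Converted reads per library ran from 0.645 to 3.69 M (mega-reads) over 0 to 120 min of the mitosis series, 2.75 to 6.17 M at 4 to 8 h, 0.42 to 5.89 M in the release series, 6.68 to 35.4 M with the 120 min label in RPE-1 and 5.63 to 9.86 M in WTC11 cells. Levels are given as CPM, converted counts per mega-read on the TMM scale of each fit, so they are comparable within a series but not between series or between genes. Among DMSO libraries with the 120 min label, in the fit over RPE-1 and WTC11 cells, the summed level of 8 cardiomyocyte markers was 3298 to 3584 CPM in DMSO cardiomyocytes, 52.7 to 54.8 CPM in DMSO neurons and 1.85 to 6.85 CPM in DMSO RPE-1 cells, with MYL2 at 0 in DMSO cardiomyocytes. In the same libraries the 8 neuron markers summed to 1453 to 1526 CPM in DMSO neurons, 95.0 to 121 CPM in DMSO cardiomyocytes and 35.8 to 123 CPM in DMSO RPE-1 cells. MAP2 alone averaged 1040 CPM in DMSO neurons. TUBB3 was at 0.59 CPM there, and SYN1 was lower in DMSO neurons (2.01 CPM) than in DMSO cardiomyocytes (3.73 CPM). Fibroblast and smooth muscle markers summed to 399 to 469 CPM in DMSO cardiomyocytes and 238 to 245 CPM in DMSO neurons. Neural progenitor and glia markers summed to 106 to 131 CPM in DMSO cardiomyocytes and 166 to 194 CPM in DMSO neurons. Across these libraries 4 markers of differentiated pigment epithelium summed to at most 2.56 CPM in every type. The proliferation markers MKI67, CCNA2, CDK1 and TOP2A summed to 536 to 851 CPM in DMSO RPE-1 cells of the mitosis series. In those of the release series they summed to 61.5 to 107 CPM. The DMSO cells of the 2 series thus differed at 120 min, and the cause was not tested. Of 4 pluripotency markers LIN28A averaged 142 CPM in DMSO neurons and 95.0 CPM in DMSO cardiomyocytes, and NANOG (0 and 0.095 CPM), POU5F1 (0.41 and 0.24 CPM) and DPPA4 (3.10 and 0.43 CPM) were at or near 0. In these bulk samples, fewer cells of a type and less RNA per cell cannot be told apart.

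Few of these genes changed with dTAG. The comparison asks whether the cohesin regulators respond when the loader protein is lost. With edgeR's quasi-likelihood test and Benjamini-Hochberg adjustment over all genes, none of the 10 passed an adjusted p of 0.05 in 15 of 16 comparisons of dTAG with DMSO, and NIPBL and ESCO2 passed at 8 h. CDCA5 was too low to be tested in the release series with the 15 min label, which leaves 9 members there. In the mitosis series the calls were 0 of 10 at 0, 30, 60, 90 and 120 min, where 0%, 0%, 0%, 0.366% and 0.95% of all genes tested were called. At 4, 6 and 8 h they were 0, 0 and 2 of 10, against 5.39%, 7.09% and 8.14% of all genes. In the release series they were 0 of 9 at 30, 60, 90 and 120 min, against 0%, 0.0933%, 0.632% and 1.4%. With the 120 min label they were 0 of 10 in the mitosis series (2.46% of all genes), the release series (0.718%), neurons (2.24%) and cardiomyocytes (4.83%). At an unadjusted p under 0.05 the members called were 0, 0, 0, 1 and 1 of 10 at 0 to 120 min, against 2.49%, 1.37%, 1.1%, 5.59% and 13% of all genes. They were 2 and 0 of 10 at 4 and 6 h (15.9% and 19.4%), and 1, 0, 0 and 1 of 9 in the release series (2.13%, 4.16%, 5.59% and 6.62%). With the 120 min label they were 1 of 10 in the mitosis series (13.3%), 1 in the release series (5.32%), 1 in neurons (11.7%) and 2 in cardiomyocytes (16.6%). Averaged over 30 to 120 min, 0 of 10 were called in the mitosis series (1.25% of all genes) and 0 of 9 in the release series (2.28%), with 1 member each at an unadjusted p under 0.05 (10.5% and 9.71%). DESeq2's own test called none of them in those 15 comparisons.

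At 8 h no member had overlapping arms, 10 of 10 against 50.9% of all genes tested, with 2 dTAG and 2 DMSO libraries. At 4 h 7 of 10 members had arms that did not overlap, against 42.7% of all genes, and at 6 h 2 of 10, against 47.3%. The median log2 change of the 10 members was 0.14 at 8 h, 0.10 at 4 h and 0.10 at 6 h, and that of all genes tested lay between 0.0032 and 0.03 at those times. Between 0 and 120 min the members' median lay between 0.03 and 0.19, against 0.0047 to 0.03 over all genes.

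**Figure D1:**
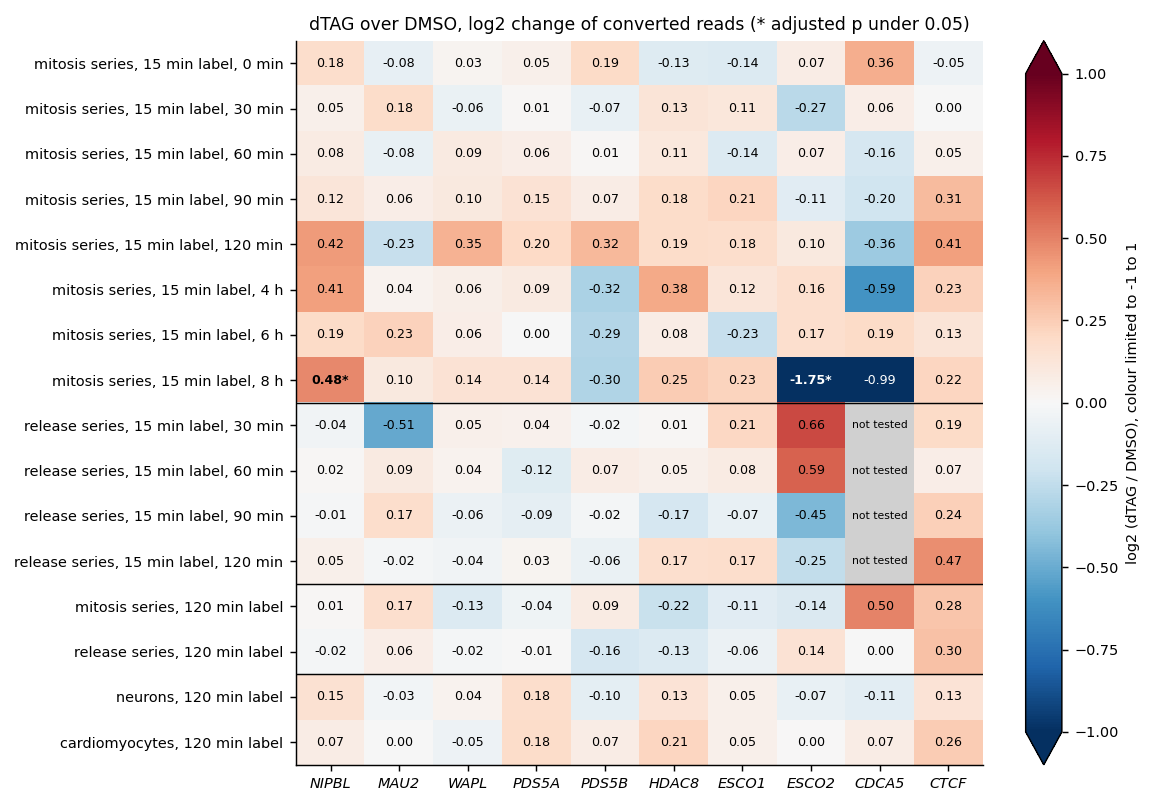
Log2 change of converted reads, dTAG over DMSO, of each of the 10 genes (columns) in each of 16 comparisons (rows), with the colour limited to -1 to 1 and an asterisk at an adjusted p under 0.05. Asterisks stand only at 8 h of the mitosis series, for NIPBL (0.48) and ESCO2 (-1.75), and the CTCF column is above 0 in 14 of 16 rows.

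Among the loader genes, NIPBL new RNA was higher in dTAG cells from 4 to 8 h. It measured 382 and 333 CPM in dTAG cells at 4 h, against 249 and 292 CPM in DMSO cells. At 6 h it was 332 and 314 CPM with dTAG, against 271 and 296 CPM with DMSO. At 8 h it was 405 and 349 CPM with dTAG, against 269 and 271 CPM with DMSO. All 6 dTAG libraries lay above all 6 DMSO libraries, which held for no other member and for 6.57% of all genes in either direction. Averaged over the 3 times NIPBL was 353 ± 34.3 CPM in dTAG cells and 275 ± 17.5 CPM in DMSO cells (SD, n = 6 each), a log2 change of 0.36 ± 0.07 (SE, adjusted p = 0.00205). NIPBL, PDS5B and HDAC8 were the 3 of 10 members called in this average, against 19.8% of all genes. At 8 h alone the NIPBL change was 0.48 ± 0.13 (adjusted p = 0.0261), at 4 h 0.41 ± 0.13 (0.0881) and at 6 h 0.19 ± 0.13 (0.472), and the difference between the changes at 8 and 4 h did not pass the test (0.08 ± 0.18, adjusted p = 0.992).

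Relative to its own all reads, NIPBL converted reads at 4 to 8 h gave a log2 change of 0.03 (adjusted p = 0.887), and with library sizes taken from all reads the change was 0.32 (0.0805). The 8 h call was lost in 6 of 12 alternatives, with 0.08 relative to its own all reads, and among them without DMSO replicate 1 (adjusted p = 0.193), DMSO replicate 2 (0.163) or dTAG replicate 1 (0.256). In the hours before, the arms of NIPBL overlapped. At 120 min it had 376, 455 and 336 CPM in dTAG cells, against 314, 358, 151 and 325 CPM in DMSO cells, a log2 change of 0.42 ± 0.22 (adjusted p = 0.405). The DMSO library at 151 CPM, replicate 3, has few converted reads. Its top 10 genes held 13.4% of them, against 3.75%, 3.44% and 3.67% in replicates 1, 2 and 4. It is also the lowest of its group for WAPL, PDS5A, PDS5B, CTCF and ESCO1. Elsewhere NIPBL was not called either, with log2 changes of -0.04 to 0.05 over the 4 times of the release series, 0.01 ± 0.17 and -0.02 ± 0.17 with the 120 min label in the mitosis and release series, 0.15 ± 0.07 in neurons and 0.07 ± 0.07 in cardiomyocytes. Its arms did not overlap in neurons (486 to 492 CPM with dTAG, 435 to 444 CPM with DMSO) or in cardiomyocytes (518 to 533 against 484 to 515 CPM). The same held for 46.6% and 42.3% of all genes.

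MAU2, which NIPBL needs for stability as its partner, was not called in any comparison of dTAG with DMSO. At 8 h it measured 35.6 and 33.8 CPM in dTAG cells and 33.1 and 31.7 CPM in DMSO cells, a log2 change of 0.10 ± 0.15 (adjusted p = 0.805). The lowest value was at 30 min of the release series, with 18.7, 21.6 and 22.1 CPM in dTAG cells and 28.1, 29.4 and 30.0 CPM in DMSO cells. The arms did not overlap there, and the log2 change was -0.51 ± 0.24 (unadjusted p = 0.0427, adjusted p = 1). In DMSO cells MAU2 was 24.3, 27.1, 43.3 and 27.7 CPM at 120 min and 30.5, 52.3 and 46.4 CPM at 0 min, a log2 change of -0.52 ± 0.25 (adjusted p = 0.117). Its opposite-strand partner SUGP1 was called in none of these comparisons. Without DMSO replicate 3 at 120 min, the MAU2 change against 0 min was -0.73 and passed the test (adjusted p = 0.0302). With all reads it was -0.59 and passed too (adjusted p = 0.0347).

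**Figure D2:**
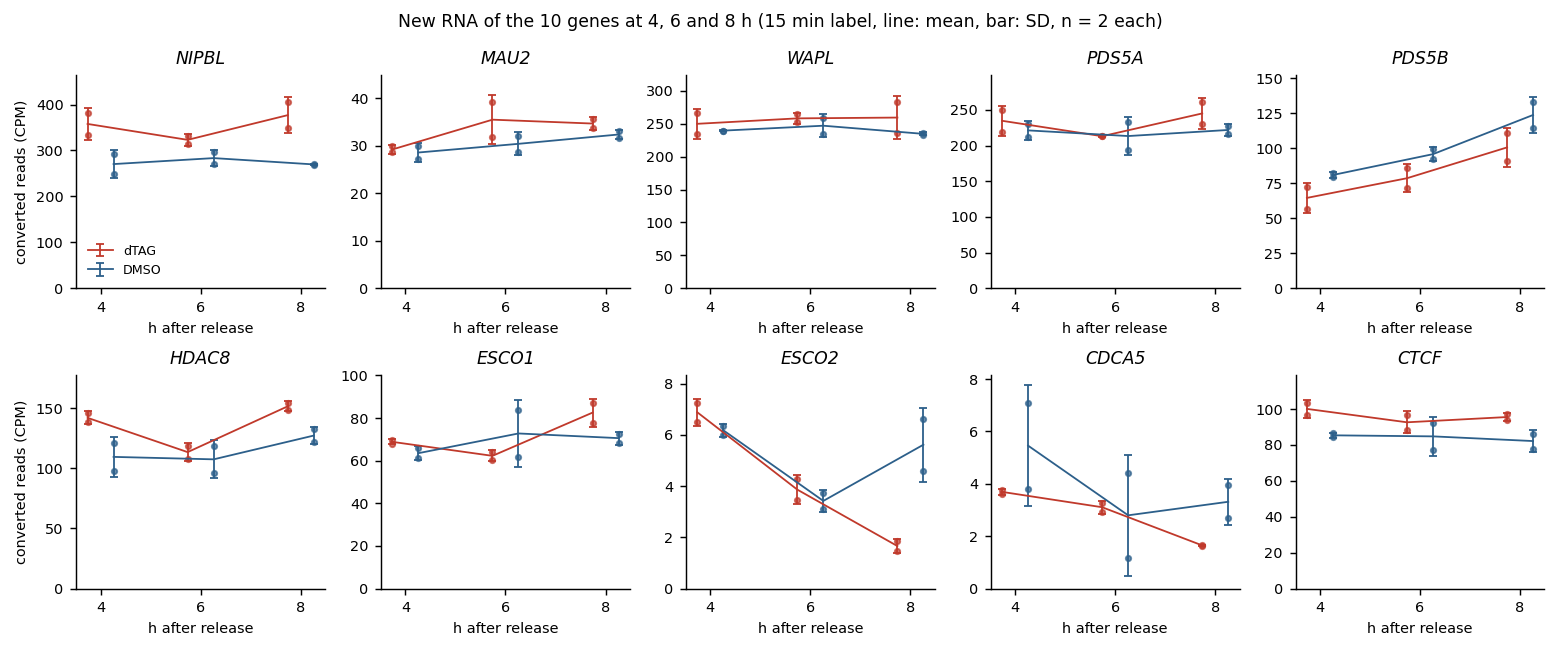
Converted reads in CPM (vertical axis, from 0) of each of the 10 genes at 4, 6 and 8 h after release (horizontal axis), in dTAG (red) and DMSO (blue) cells of the mitosis series, with points for libraries, lines for means and bars for the SD (n = 2 each). NIPBL lies above DMSO at each time, PDS5B climbs in both arms, and ESCO2 at 8 h is at 1.46 and 1.86 CPM with dTAG, against 4.60 and 6.64 CPM with DMSO.

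Among the release factors the calls lay mostly between times. Converted reads of PDS5A and PDS5B, the paralogous partners through which WAPL acts, fell relative to the bulk of converted reads as DMSO cells left mitosis. In whole DMSO libraries 2.57%, 3.32% and 2.44% of reads were converted at 0 min, against 3.47%, 4.05%, 4.43% and 3.85% at 60 min. No library without 4sU was used, so the part of false conversions in the 0 min values of any member was not tested. PDS5A measured 221, 275, 130 and 213 CPM at 120 min, against 425, 415 and 353 CPM at 0 min. The groups did not overlap, and the log2 change was -0.91 ± 0.17 (adjusted p = 0.000102). It had already fallen at 60 min, with 259, 261, 234 and 250 CPM (-0.66 ± 0.17, adjusted p = 0.00246), and was still lower at 90 min, with 238, 260, 288 and 310 CPM (-0.54 ± 0.17, adjusted p = 0.0168). PDS5B measured 100, 116, 61.6 and 87.4 CPM at 120 min, against 231, 180 and 165 CPM at 0 min, a log2 change of -1.05 ± 0.19 (adjusted p = 6.46e-05). At 60 min PDS5B was 140, 151, 112 and 140 CPM (-0.51 ± 0.18, adjusted p = 0.0306), and at 90 min 137, 131, 171 and 176 CPM (-0.33 ± 0.19, adjusted p = 0.202). The 60, 90 and 120 min comparisons share their 3 libraries at 0 min.

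WAPL itself was 247, 274, 141 and 295 CPM at 120 min and 347, 329 and 305 CPM at 0 min, a log2 change of -0.43 ± 0.18 (adjusted p = 0.0745). The groups did not overlap, and WAPL did not pass the test, although it did with DESeq2's own test (adjusted p = 0.0395). Against 0 min the DMSO libraries gave 0 of 10 members called at 30 min, where 0% of all genes were called and 0 members had an unadjusted p under 0.05 (3.5% of all genes). At 60 min 3 members were called (35.9% of all genes), at 90 min 1 (24.3%), and at 120 min 3 (27.8%), each at a lower level than at 0 min. Without DMSO replicate 3 at 120 min, which stands apart, 5 members were called at 120 min. Those gained were MAU2 (-0.73, adjusted p = 0.0302) and ESCO2 (-0.80, adjusted p = 0.0279). HDAC8 was the other gene called at 60 min and CTCF the other at 120 min. The members' median log2 change was -0.33, -0.31 and -0.49 at 60, 90 and 120 min, against 0.02, 0.01 and 0.06 over all genes tested. These changes are relative to the bulk of new RNA: when library sizes came from all reads, the all-gene median was 0.62 for 60 min, 0.50 for 90 min and 0.43 for 120 min. On that scale PDS5A was at -0.10, -0.06 and -0.58 and PDS5B at 0.066 at 60 min and -0.71 at 120 min, and only the 120 min values kept an adjusted p under 0.05. Relative to each gene's own all reads the 120 min changes were -0.20 for PDS5A (adjusted p = 0.197) and -0.14 for PDS5B (0.423). The PDS5A call at 90 min was lost in 5 of 11 alternatives, and the PDS5B call at 60 min was lost or turned in 7 of 11.

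From 4 to 8 h PDS5B went the other way and rose in both arms. In dTAG cells it was 111 and 90.6 CPM at 8 h, against 72.3 and 56.8 CPM at 4 h, a log2 change of 0.63 ± 0.16 (adjusted p = 0.0132). In DMSO cells it was 133 and 115 CPM at 8 h, against 82.3 and 79.7 CPM at 4 h, a log2 change of 0.61 ± 0.15 (adjusted p = 0.0113). It was the 1 member of 10 called in DMSO cells at 8 against 4 h, where 13.3% of all genes were called, and with ESCO2 1 of the 2 called in dTAG cells, where 12.2% were. None was called in DMSO cells at 6 against 4 h (1.12% of all genes), with 2 at an unadjusted p under 0.05 (12.1%). Without DMSO replicate 1 at 8 h the DMSO call was lost, and counting all reads gave a change of -0.043 in dTAG cells and -0.013 in DMSO cells. At each of the 3 times PDS5B was lower in dTAG cells, with arms that did not overlap, and averaged over 4 to 8 h the log2 change was -0.30 ± 0.09 (adjusted p = 0.0203). It was 81.3 ± 18.7 CPM with dTAG and 100 ± 20.4 CPM with DMSO (SD, n = 6 each, the spread including the change over time). This call was lost in 6 of 19 alternatives. PDS5A and WAPL were not called in any drug comparison, and at 8 h their log2 changes were 0.14 ± 0.13 and 0.14 ± 0.12.

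**Figure D3:**
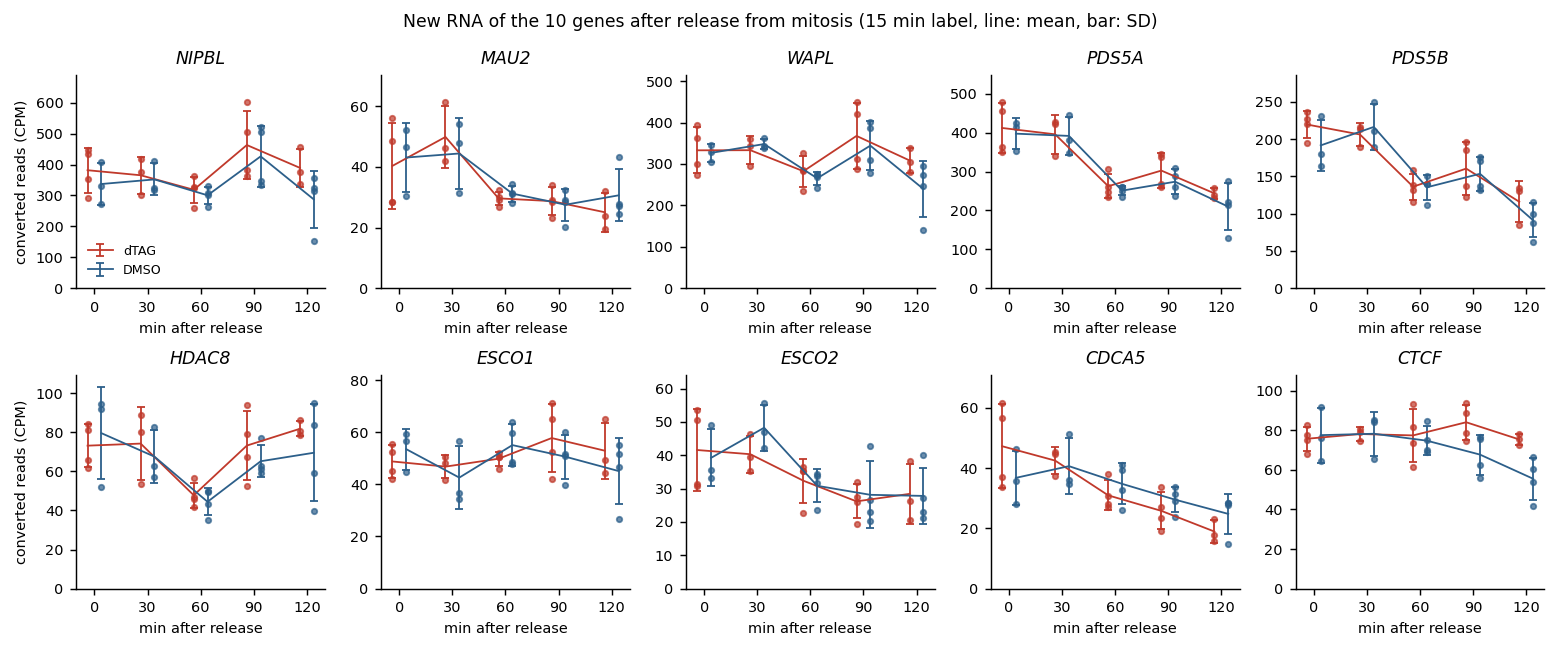
Converted reads in CPM (vertical axis, from 0) of each of the 10 genes at 0, 30, 60, 90 and 120 min after release (horizontal axis), in dTAG (red) and DMSO (blue) cells of the mitosis series, with points for libraries, lines for means and bars for the SD. PDS5A and PDS5B step down between 30 and 60 min in both arms, and HDAC8 is lowest at 60 min. At 120 min CTCF is 72.4 to 78.1 CPM with dTAG, above the 41.6 (replicate 3, which stands apart) to 66.4 CPM with DMSO.

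HDAC8, the SMC3 deacetylase, was lower at 60 min. In DMSO cells it was 49.9, 49.5, 43.5 and 35.0 CPM at 60 min, against 92.1, 52.3 and 94.6 CPM at 0 min, a log2 change of -0.85 ± 0.23 (adjusted p = 0.00363). This call was lost in 4 of 11 alternatives, with -0.24 (0.457) when library sizes came from all reads. At 120 min it lay between 39.9 and 95.2 CPM and did not pass the test against 0 min (-0.16 ± 0.23, adjusted p = 0.631). From 4 to 8 h HDAC8 was 138, 146, 108, 119, 149 and 155 CPM in dTAG cells and 97.9, 121, 96.4, 119, 122 and 132 CPM in DMSO cells, given by time and then replicate. The arms overlapped over the 3 times together, and the averaged log2 change was 0.24 ± 0.08 (adjusted p = 0.0469). That call is at the threshold and was lost in 16 of 19 alternatives.

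ESCO1, the acetyltransferase active through the cell cycle, did not pass the test over mitotic exit in the mitosis series. In DMSO cells it measured 46.7, 55.2, 26.6 and 51.8 CPM at 120 min and 56.7, 59.3 and 44.6 CPM at 0 min (-0.19 ± 0.21, adjusted p = 0.519). In the release series, whose DMSO cells differed from those of the mitosis series in proliferation markers (values above), it rose between 30 and 90 min. DMSO cells had 77.2, 77.1 and 79.6 CPM at 90 min, against 54.7, 45.7 and 41.5 CPM at 30 min, a log2 change of 0.73 ± 0.17 (adjusted p = 0.0243). ESCO1 was the 1 member of 9 called at 90 against 30 min, where 2.51% of all genes were, and 0 of 9 were called at 60 min (0.208% of all genes) and at 120 min (2.36%). At an unadjusted p under 0.05 the counts were 1 of 9 at 60 min (11% of all genes) and 3 of 9 at 120 min (16.7%). The call was lost when any replicate number was left out. WAPL at 90 min (0.41 ± 0.12, adjusted p = 0.058) and 120 min (0.39 ± 0.12, 0.0748) was just short of the threshold, and it passed at both with DESeq2's own test and with the replicate number as a block, as ESCO1 did at 120 min with the block (0.51, adjusted p = 0.0436). By the pairing rule given below, the replicate numbers paired libraries of this series only at 120 min. In no drug comparison was ESCO1 called, and the log2 changes lay between -0.23 and 0.23.

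ESCO2, the S phase acetyltransferase, fell with dTAG at 8 h. It had 8 and 7 converted reads in dTAG cells and 42 and 28 in DMSO cells, which is 1.86 and 1.46 CPM with dTAG, against 6.64 and 4.60 CPM with DMSO. The arms did not overlap, and the log2 change was -1.75 ± 0.38 (adjusted p = 0.00628). At 4 h ESCO2 was 7.26 and 6.52 CPM with dTAG, against 6.01 and 6.36 CPM with DMSO (0.16 ± 0.32, adjusted p = 0.872). At 6 h it was 4.27 and 3.46 CPM with dTAG, against 3.73 and 3.12 CPM with DMSO (0.17 ± 0.38, adjusted p = 0.858). Within dTAG cells ESCO2 fell by 2.05 ± 0.39 on the log2 scale at 8 h against 4 h (adjusted p = 0.00246), and in DMSO cells it was -0.13 ± 0.30 (adjusted p = 0.819). The difference between the drug effects at 8 and at 4 h was -1.92 ± 0.50, with an adjusted p of 0.122, where 0.57% of all genes were called and 1 member, ESCO2, had an unadjusted p under 0.05 (6.59% of all genes). The other tests of a difference between drug effects called 0 members, with 0 at an unadjusted p under 0.05: 120 against 30 min in the mitosis series (0.0493% of all genes, 4.86% unadjusted) and the release series (0.287%, 3.48%), the mitosis against the release series with the 120 min label (0%, 2.99%), and neurons against cardiomyocytes (0.595%, 8.5%).

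The 8 h value of ESCO2 rests on few reads. Its log2 change was -1.46 (adjusted p = 0.101) without DMSO replicate 1, -1.58 (0.0802) without dTAG replicate 2, and -0.56 (0.239) when all reads were counted. Its opposite-strand partners did not pass the test at 8 h: PBK, a mitotic kinase, was at -0.98 ± 0.33 (adjusted p = 0.0848) and CCDC25 at 0.13 ± 0.14 (0.671). At 8 h against 4 h PBK fell in both arms, by 2.59 ± 0.31 in dTAG cells (adjusted p = 4.9e-05) and by 1.48 ± 0.26 in DMSO cells (0.00144), and the part of PBK reads in the ESCO2 values was not tested. The 4 proliferation markers (MKI67, CCNA2, CDK1 and TOP2A) summed to 188 to 199 CPM in dTAG cells and 164 to 186 CPM in DMSO cells at 8 h.

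CDCA5 (sororin) did not pass the test at any time. At 8 h it had 1.63 and 1.67 CPM (7 and 8 reads) in dTAG cells and 2.69 and 3.94 CPM (17 and 24 reads) in DMSO cells, a log2 change of -0.99 ± 0.54 (adjusted p = 0.339). The arms did not overlap, but with 2 SE on either side the change lay between -2.08 and 0.09. Over 0 to 120 min CDCA5 was 23.2, 15.9 and 17.7 CPM in dTAG cells at 120 min and 28.3, 14.9, 28.3 and 27.7 CPM in DMSO cells, and in DMSO cells at 0 min it was 35.9, 46.2 and 28.2 CPM. Neither the drug (-0.36 ± 0.26, adjusted p = 0.557) nor the time (-0.59 ± 0.26, adjusted p = 0.0815) passed. In the release series CDCA5 had at most 9 converted reads in any library.

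CTCF, the boundary protein, was the member whose new RNA was most often higher with dTAG, without passing the adjusted test. It was higher in 14 of 16 comparisons, with a median log2 change of 0.22 and a range of -0.05 to 0.47, and its unadjusted p was under 0.05 in 6 of them. Of 12289 genes tested in all 16 comparisons, 4.66% were higher in at least 14 and 4.96% had an unadjusted p under 0.05 in at least 6. The largest change was at 120 min of the release series, with 85.6, 91.4 and 90.6 CPM in dTAG cells and 55.2, 72.4 and 66.0 CPM in DMSO cells (0.47 ± 0.16, adjusted p = 0.287). At 120 min of the mitosis series CTCF was 75.7, 78.1 and 72.4 CPM with dTAG and 60.5, 66.4, 41.6 (replicate 3, which stands apart) and 53.6 CPM with DMSO (0.41 ± 0.16, adjusted p = 0.276). With the 120 min label it was 119, 140 and 133 CPM with dTAG and 99.4, 109 and 116 CPM with DMSO in the mitosis series (0.28 ± 0.12, adjusted p = 0.336). The groups did not overlap in these 3 comparisons, as for 12.8%, 7.72% and 16% of all genes.

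In the release series with the 120 min label CTCF was 136, 122 and 129 CPM with dTAG and 103, 99.6 and 113 CPM with DMSO (0.30 ± 0.12, adjusted p = 0.72). In cardiomyocytes it was 216 and 217 CPM with dTAG and 187 and 176 CPM with DMSO (0.26 ± 0.08, adjusted p = 0.092), and in neurons 189 and 197 CPM with dTAG and 176 and 177 CPM with DMSO (0.13 ± 0.08, adjusted p = 0.564). Every dTAG library lay above every DMSO library in these 3, where the arms of 11.9%, 42.3% and 46.6% of all genes did not overlap. At 0 min (-0.05 ± 0.16) and 30 min (-0.0012 ± 0.16) of the mitosis series the arms overlapped. Averaged over 30 to 120 min of the release series the change was 0.24 ± 0.08, with an adjusted p of 0.201, and of 0.0399 with the replicate number as a block. The replicate numbers paired the libraries only at 120 min. At 30, 60 and 90 min the lowest correlation of a pair was -0.203, -0.19 and -0.28, so the block does not hold for the whole average. In DMSO cells of the mitosis series CTCF was lower at 120 min (values above) than at 0 min, where it had 92.1, 64.3 and 76.4 CPM (-0.47 ± 0.16, adjusted p = 0.0285), a call that was lost in 7 of 12 alternatives.

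**Figure D4:**
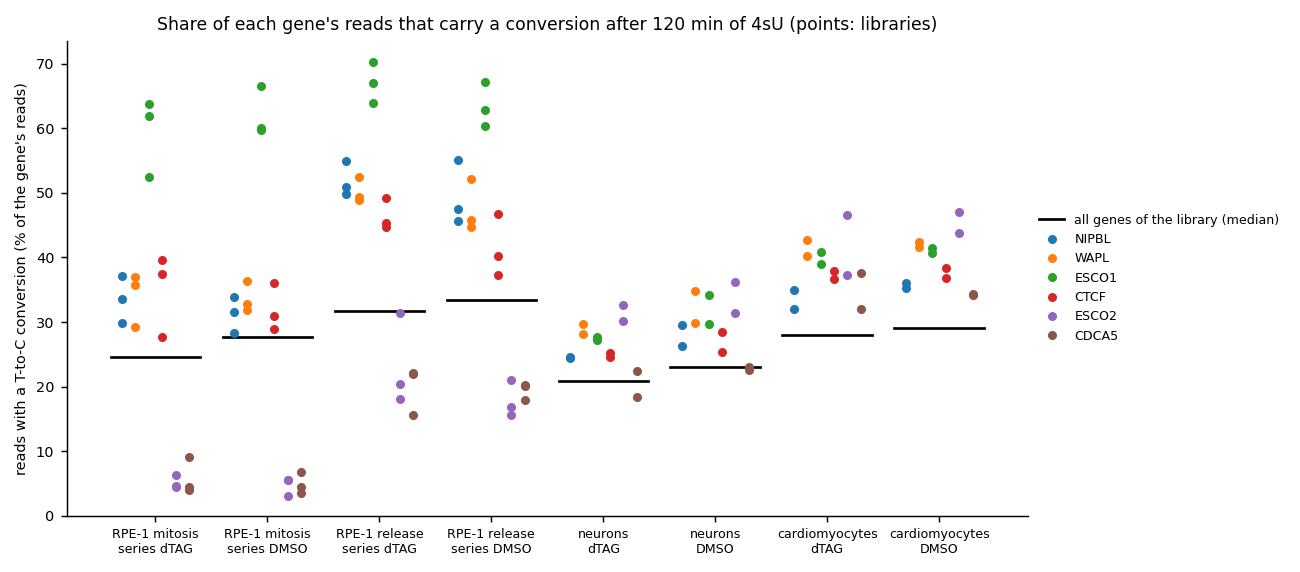
Share of a gene's reads that carry a conversion, in percent (vertical axis, from 0), in libraries with 120 min of 4sU, grouped by cells and drug, with a point per library and a black bar for the median over whole libraries. ESCO2 and CDCA5 are at 3.12 to 9.09% in the RPE-1 mitosis series, below the 23.5 to 29.7% of whole libraries of that series. ESCO1 lies above its library in each group.

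With the 120 min label, ESCO2 and CDCA5 had a low share of converted reads in RPE-1 cells of the mitosis series. A low share can mean that more of a gene's reads came from RNA made before the label. New reads without a conversion also lower it, and the rule for calling one is not given. Reads of PBK and CCDC25 cannot be told apart in the ESCO2 share. With the 120 min label ESCO2 had 3.12 to 6.35% converted reads in the mitosis series, against 23.5 to 38.9% over whole libraries of both series, and 15.6 to 31.4% in the release series. CDCA5 had 3.50 to 9.09% in the mitosis series and 15.7 to 22.2% in the release series. ESCO1, by contrast, had 52.5 to 70.2% over both series. In WTC11 cells ESCO2 had 30.2 to 47.0% and CDCA5 18.4 to 37.6%, where whole libraries had 20.9 to 29.5%. Both genes were also among those with a wide range of all reads: ESCO2 ran from 25.1 to 51.3 CPM of all reads over 0 to 120 min and from 3.03 to 11.7 CPM at 4 to 8 h, and CDCA5 from 26.4 to 85.4 CPM and from 3.83 to 11.2 CPM.

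Over the 16 groups of the mitosis series with the 15 min label, the level of ESCO2 and CDCA5 correlated at 0.985, and ESCO1 ran opposite to ESCO2 at -0.95. PDS5A and PDS5B correlated at 0.834. The 3 genes most like ESCO2 among 10520 were TMPO (0.991), SKA1 (0.99) and ERCC6L (0.988), and those most like CDCA5 were TMPO (0.993), CBX5 (0.992) and REEP4 (0.988). TMPO encodes lamina proteins, SKA1 a kinetochore protein, ERCC6L a mitotic helicase, CBX5 heterochromatin protein HP1 alpha and REEP4 an endoplasmic reticulum protein that acts in mitosis. For NIPBL they were MAP4K5 (0.934), TAF2 (0.889) and ARHGEF12 (0.877). These values are Pearson's r over group means that share 48 libraries and the same release, and they are descriptions with no test. ESCO2 ran from 19.5 to 55.7 CPM in the libraries timed in minutes and from 1.46 to 7.26 CPM in those timed in hours. CDCA5 ran from 14.9 to 61.7 CPM and from 1.17 to 7.1 CPM. These sets were fitted apart, and the part of this step in r was not tested. Reads of PBK, a mitotic kinase, cannot be told apart in the likeness of ESCO2 to SKA1 and ERCC6L.

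Other genes of the cohesin pathway and of the cell cycle had many more calls at 8 h, chiefly those of replication forks and of G1 and S phase. The lists were chosen with earlier results of these data known. Of all genes tested, 4.62% were called lower with dTAG at 8 h and 3.52% higher. Of 9 genes that establish cohesion at replication forks, 7 fell and 0 rose in that comparison. Their median log2 change was -1.16, against 0.01 over all genes tested. Among them DSCC1, a subunit of the PCNA loader for cohesion, changed by -2.81 ± 0.49 (adjusted p = 0.00121), CLSPN (claspin), a fork checkpoint mediator, by -2.33 ± 0.22 (2.35e-06) and CHTF18, the large subunit of that loader, by -2.19 ± 0.60 (0.031). Of 16 E2F genes of G1 and S phase, 15 fell and 0 rose, with a median of -2.07, led by CCNE2 (-5.21 ± 0.53, adjusted p = 5.11e-06), CDT1 (-4.19 ± 0.85, 0.00417) and E2F1 (-3.91 ± 0.50, 5.66e-05). None of 10 mitotic genes was called in that comparison (median -0.12).

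At 8 h against 4 h, 7 of 16 E2F genes were lower and 0 higher in dTAG cells (median -0.91), and 1 was lower and 10 were higher in DMSO cells (median 0.85). The medians of all genes were -0.00012 in dTAG cells and -0.0031 in DMSO cells. Of all genes tested, 5.92% were lower and 6.25% higher in dTAG cells, and 6.73% lower and 6.6% higher in DMSO cells. The drug effect at 8 h minus that at 4 h was called lower for 6 of 16 E2F genes (median -2.01). It was called lower for 2 of 9 fork genes (median -1.06) and for 0.398% of all genes. The 10 mitotic genes fell from 4 to 8 h in both arms, 10 of 10 in each, with medians of -1.85 in dTAG cells and -1.41 in DMSO cells.

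Of 9 genes for the ring and its STAG subunits, 7 were tested in RPE-1 cells. STAG1, the alternative to STAG2 in the ring, rose with dTAG by 0.84 ± 0.08 averaged over 4 to 8 h (adjusted p = 3.35e-07), and STAG2 by 0.34 ± 0.08 (0.00703). That makes 2 of 7 higher, against 9.07% of all genes, with a median of 0.05. STAG1 also rose in neurons (0.70 ± 0.09, adjusted p = 0.0011), in cardiomyocytes (0.54 ± 0.09, 0.00383) and over 30 to 120 min of the mitosis series (0.42 ± 0.11, 0.0491) and of the release series (0.27 ± 0.06, 0.0149). It was the 1 ring gene called in each of those 4, where 2.24%, 4.83%, 1.25% and 2.28% of all genes were called. Of 12 genes for the protection and mitotic removal of cohesin, 0 were called with dTAG over 4 to 8 h, against 19.8% of all genes. At 120 against 0 min in DMSO cells 9 of these 12 were lower and 1 higher (median -1.01), against 13.1% and 14.7% of all genes. CDK1, the mitotic kinase, was at -4.59 ± 0.36 (adjusted p = 1.78e-11) and SGO2, a shugoshin, at -1.38 ± 0.23 (2.47e-05). Of 8 tested boundary and CTCF partner genes, ZNF143 was called with dTAG over 4 to 8 h (0.37 ± 0.11, adjusted p = 0.025), where 19.8% of all genes were called.

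Between the cell types, members were called no more often than genes at large. Neurons and cardiomyocytes were compared in DMSO libraries of 1 fit, where 53.7% of all genes were called, and 3 of 10 members were. PDS5B was 290 and 274 CPM in neurons and 220 and 217 CPM in cardiomyocytes, a log2 change of 0.37 ± 0.08 (adjusted p = 0.00181). ESCO1 was 97.2 and 97.9 CPM in neurons and 144 and 141 CPM in cardiomyocytes (-0.54 ± 0.09, adjusted p = 0.000226). ESCO2 was 31.2 and 27.6 CPM in neurons and 16.6 and 12.3 CPM in cardiomyocytes (1.02 ± 0.17, adjusted p = 0.000342). The types did not overlap for 8 of 10 members, these 3 included, and for 77.9% of all genes. Relative to its own all reads PDS5B was at 0.0038 (adjusted p = 0.971), and with library sizes from all reads at 0.10 (0.397). The proliferation markers summed to 349 to 360 CPM in DMSO neurons and 166 to 238 CPM in DMSO cardiomyocytes. In neurons 8 of 10 mitotic genes and 10 of 16 E2F genes were higher, against 26.9% of all genes. The part of dividing cells in the ESCO2 difference was not tested.

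Set against both WTC11 types with the 120 min label, DMSO RPE-1 cells had more new WAPL and less PDS5B, ESCO2, CDCA5 and CTCF. Cell line, differentiation and the stage of the cell cycle differ together here and cannot be told apart. The RPE-1 side is the mean of the DMSO groups of both series, which themselves differed in proliferation markers (values above). RPE-1 cells had 5 of 10 members called against cardiomyocytes, where 68% of all genes were, and 7 of 10 against neurons, where 72.4% were. WAPL was 376, 433 and 451 CPM in the mitosis series and 358, 377 and 374 CPM in the release series, against 215 and 216 CPM in neurons and 236 and 252 CPM in cardiomyocytes. Its log2 change was 0.87 ± 0.12 against neurons (adjusted p = 1.2e-06) and 0.69 ± 0.12 against cardiomyocytes (2.23e-05), with no overlap. Relative to its own all reads WAPL was at -0.15 and -0.14, and with library sizes from all reads the all-gene median was -0.18 against neurons and -0.46 against cardiomyocytes. PDS5B was 94.4 to 129 CPM in RPE-1 cells, against 242 and 229 CPM in neurons (-1.04 ± 0.14, adjusted p = 8.08e-07) and 183 and 183 CPM in cardiomyocytes (-0.68 ± 0.14, 0.00021). CTCF was 112 to 132 CPM in RPE-1 cells, against 147 and 148 CPM in neurons (-0.29 ± 0.11, adjusted p = 0.0203) and 156 and 148 CPM in cardiomyocytes (-0.33 ± 0.10, 0.00848). The CTCF call was lost in 5 of 10 alternatives against neurons and in 4 of 10 against cardiomyocytes, with -0.02 (adjusted p = 0.883) and -0.12 (0.388) relative to its own all reads. The PDS5B call against cardiomyocytes was lost with all reads (-0.20, adjusted p = 0.237) and without replicate 2.

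ESCO2 was 2.02 to 9.51 CPM in RPE-1 cells, against 26.1 and 23.0 CPM in neurons (-2.55 ± 0.23, adjusted p = 3.6e-09) and 13.9 and 10.3 CPM in cardiomyocytes (-1.54 ± 0.24, 1.14e-05). CDCA5 was 1.29 to 9.42 CPM in RPE-1 cells, against 14.8 and 12.5 CPM in neurons (-1.81 ± 0.39, adjusted p = 0.000301) and 11.04 and 9.83 CPM in cardiomyocytes (-1.42 ± 0.39, 0.00303). PBK, on the strand opposite ESCO2, was also lower in RPE-1 cells, at -1.02 ± 0.24 against neurons and -0.65 ± 0.25 against cardiomyocytes (adjusted p = 0.000891 and 0.0252). With all reads ESCO2 was 0.91 higher in RPE-1 cells than in cardiomyocytes (adjusted p = 0.000732), and CDCA5 was at 0.50, while against neurons they were at -0.080 and -0.019 and no longer called. ESCO1 (0.42 ± 0.15, adjusted p = 0.015) and HDAC8 (0.52 ± 0.22, 0.0415) were called against neurons, and these calls were lost in 6 of 10 alternatives for ESCO1 (0.064, adjusted p = 0.763, with all reads) and in 8 of 10 for HDAC8. NIPBL, MAU2 and PDS5A were called between no pair of cell types: NIPBL was 333 to 523 CPM in RPE-1 cells, 364 and 371 CPM in neurons and 430 and 407 CPM in cardiomyocytes.

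**Figure D5:**
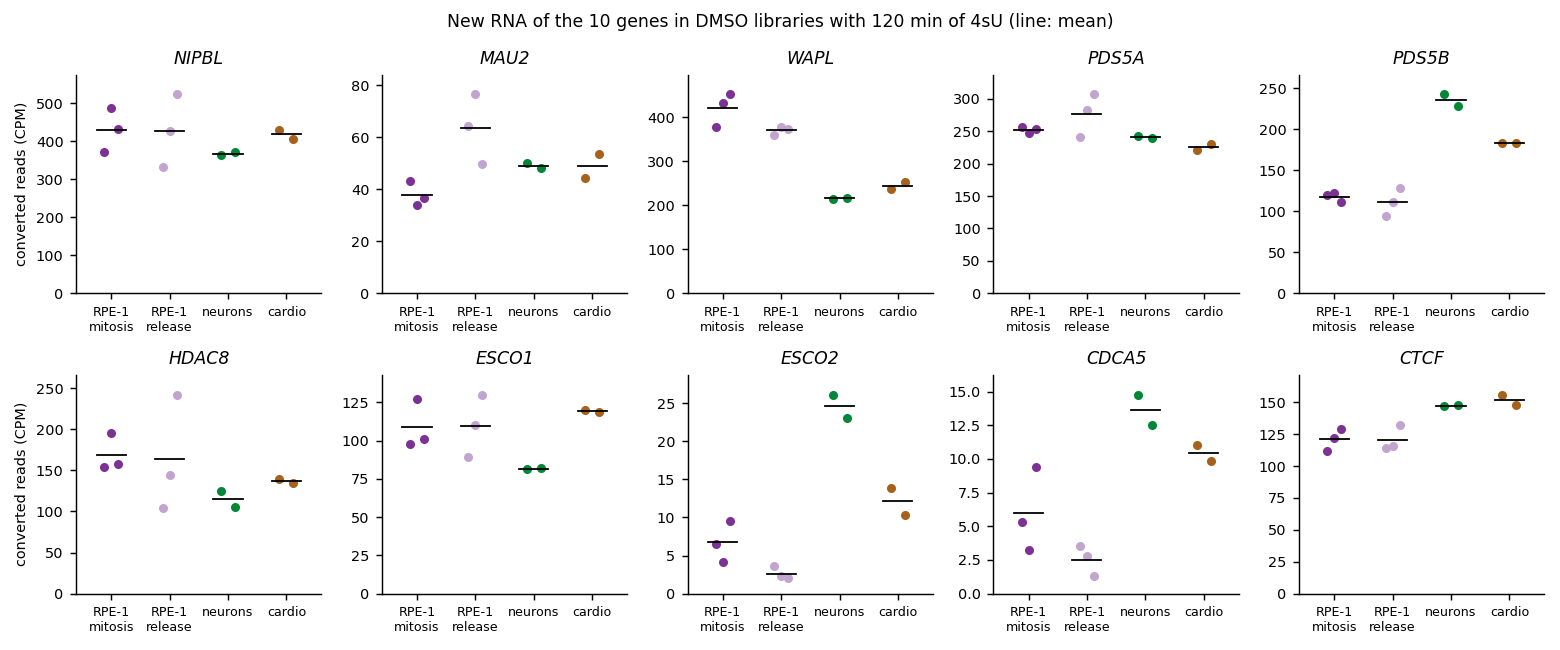
Converted reads in CPM (vertical axis, from 0) of each of the 10 genes in DMSO libraries with 120 min of 4sU, for RPE-1 of the mitosis and release series, neurons and cardiomyocytes (horizontal axis), with a point per library and a line for the mean. All 6 RPE-1 libraries lie above the WTC11 libraries for WAPL (358 to 451 CPM against 215 to 252 CPM) and below them for PDS5B, ESCO2, CDCA5 and CTCF.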

How the data were processed

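Per the submitters' processing notes, reads were handled with HISAT, Picard and HTSeq on hg38, with no versions, and the strand setting and the rule for calling a conversion are not given in the sources used here. The libraries were total RNA depleted of ribosomal RNA, per the labels' protocols. For every gene the authors deposited a count of all reads and a count of converted reads, and the deposited fraction columns were not used in the tests. No library without 4sU was used here, so the background of false conversions is not known.

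Of 49186 named genes, 281 on the Y chromosome or tied to X inactivation were left out. Converted counts were fitted with edgeR 4.0.16 in R 4.3.3 (TMM scaling, quasi-likelihood test, a filter on low counts with the minimum set to 10 and the total to 15, Benjamini-Hochberg adjustment over all genes tested, threshold 0.05), in 6 fits: 0 to 120 min, 4 to 8 h, the 120 min label in RPE-1, the release series, WTC11, and the last 120 min label sets together. SE is the absolute log2 change over the square root of F. The test was also run on simulated data. There, genes with few reads were left unchanged, and the changes were larger than those called with dTAG for NIPBL, PDS5B and HDAC8. That run does not cover such changes or the few reads of ESCO2 and CDCA5. Promoter windows and motifs came from RefSeq tables.

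The 10 genes and the other lists were chosen with earlier results of these data known. Calls were counted over all members tested in each comparison, but the values of single members are given for only some comparisons. Among those left out are NIPBL and ESCO2 at 120 against 0 min in the fit with all DMSO libraries. Of each other list at most the 3 called genes with the largest change per comparison are named. Samples were grouped by their labels. Same-numbered libraries were taken as pairs where every pair's correlation of deviations was over 0.1. That held at 0 min of the mitosis series (0.195 to 0.564), with the 120 min label of the mitosis series (0.152 to 0.581) and in the release series at 120 min (0.238 to 0.422).

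Alternatives were DESeq2 1.42.0 (its size factors, its test), no filter, all reads, library sizes from all reads, the replicate number as a block, only the arms compared, each replicate left out, and DMSO 120 min replicate 3 left out. Converted reads relative to a gene's own all reads, and single libraries left out at 4 to 8 h and in WTC11, were chosen after seeing the data.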

Additional observations from a re-analysis of the deposited data

Results flagged for a closer look

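Within groups of 4 libraries, 60 sets of values of the 10 genes were tested for a library far from the others, and 2 were found, where chance gives about 1 in 20. ESCO2 in dTAG cells at 60 min of the mitosis series was 22.5 CPM in replicate 2, and 35.1 to 36.3 CPM in the other libraries. CDCA5 in DMSO cells at 120 min with the 15 min label was 14.9 CPM in replicate 2, and 27.7 to 28.3 CPM in the other libraries. Neither gene was called at these times.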

How the results depend on the processing

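In the single comparisons of dTAG with DMSO no alternative brought a further member past the threshold. For the average of 4 to 8 h, with 3 members called, 1 was called with all reads, 0 relative to a gene's own all reads, 0 with library sizes from all reads, and 1 to 4 when a library was left out. It was 1 without DMSO 8 h replicate 1, dTAG 4 h replicate 2, dTAG 6 h replicate 2 or dTAG 8 h replicate 2. In the release average, with 0 called, the replicate block gave 1 (CTCF), although the numbers paired libraries only at 120 min. For 120 against 0 min, with 3 called, all reads gave 6 and leaving out DMSO replicate 3 at 120 min gave 5, with 2 to 5 when a replicate was left out. For 120 against 30 min in the release series, with 0 called, DESeq2's test gave 1, converted reads relative to all reads 2, library sizes from all reads 5 and the replicate block 2. For 8 against 4 h in DMSO cells, with 1 called, converted reads relative to all reads gave 3, library sizes from all reads 8, and leaving out a library 0 to 1. Between neurons and cardiomyocytes, with 3 called, the counts were 7 with all reads, 1 relative to all reads, 6 with library sizes from all reads and 5 without a filter. RPE-1 cells had 3 to 5 members called against cardiomyocytes and 4 to 6 against neurons when a replicate was left out, and 4 against neurons with all reads.

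Signs turned for these values. Relative to a gene's own all reads, they were 0.37 for NIPBL and 0.54 for HDAC8 at 120 against 0 min, 0.33 for PDS5B and 0.45 for HDAC8 at 90 against 0 min, 0.86 for ESCO2 at 8 against 4 h in DMSO cells, -0.038 for ESCO2, 0.0082 for ESCO1 and 0.22 for HDAC8 in neurons against cardiomyocytes, -0.14 for WAPL, -0.71 for PDS5A and 0.54 for ESCO1 in RPE-1 against cardiomyocytes, and -0.15 for WAPL and -0.65 for PDS5A in RPE-1 against neurons. With library sizes from all reads, at 8 against 4 h in DMSO cells, they were 0.59 for NIPBL, 0.56 for WAPL and 0.52 for CTCF, and at 60 against 0 min 0.53 for CTCF and 0.066 for PDS5B, where the median of all genes moved to 0.59 and 0.62. With all reads they were -0.013 and -0.043 for PDS5B at 8 against 4 h in DMSO and dTAG cells, and 0.91 for ESCO2 and 0.50 for CDCA5 in RPE-1 against cardiomyocytes. The cause was not tested.

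Over all genes, the calls for the average of 4 to 8 h (2882) ran from 179 relative to all reads to 3249 with all reads. Those at 120 against 30 min of the release series (329) ran from 5 without replicate 2 to 3605 with library sizes from all reads. No member gained or lost a call in a paired group under the replicate block beyond those named. ESCO2 and CDCA5 are limited by few converted reads.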
